A study of Mus musculus with 6 samples.

Results

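Notch signalling genes were examined through 10 named members: the receptors Notch1, Notch2, Notch3 and Notch4, the ligands Jag1, Jag2, Dll1 and Dll4, and the target genes Hes1 and Hey1. They were chosen by name, as the probe sets whose platform annotation gives one of these genes alone, and all 10 were found, on 11 probe sets, among 22180 genes on 23521 such probe sets. Expression was measured on 6 arrays of mouse mammary material. The K8wt group held 3 samples (replicates 1, 2 and 4) of wild-type luminal epithelial cells, each from a different Rosa26-Stop-YFP female, sorted as YFP+ cells 10 to 14 days after Ad-K8-Cre, an adenovirus that expresses Cre recombinase from the keratin 8 promoter, was injected into the ducts. The Brca1Tumor group held 3 mammary tumors (23, 24 and 25) from Trp53L/L;Brca1L/L females that received the same virus several months earlier, and the labels describe these tumors as null for Trp53, a tumor suppressor, and Brca1, a gene of homologous recombination. Sorting is stated for the wild-type cells only, the L/L alleles only for the tumor mice, and no age is given. The labels do not say whether the 3 tumors arose in separate mice; if they did not, p-values partly measure the spread within an animal.

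Notch receptors are single-pass membrane proteins that bind Jagged and Delta-like ligands on neighbouring cells. Ligand binding exposes the receptor to ADAM proteases and then to gamma-secretase, which frees an intracellular fragment that joins the DNA-binding protein Rbpj and a Mastermind coactivator to switch on repressor genes of the Hes and Hey families. In the mammary gland the pathway is known for its part in luminal cell fate, and Notch1, Notch4, Dll4 and Hey1 are also used by blood vessels.

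None of the 10 members passed the test between tumors and wild-type cells, which was limma's moderated test with Benjamini-Hochberg adjustment over all 22180 genes at 0.05. Over all genes, 3.91% were called, 2.52% higher and 1.39% lower in tumors. Hey1 had the largest measured difference, 1.79 log2 units higher in tumors, followed by Notch2 (1.21 higher) and Jag2 (1.01 higher), and Notch3 had the largest downward one (0.70 lower). At an unadjusted p under 0.05 stood 3 members, Notch2, Notch3 and Hey1, or 30% of the members against 26.4% of all genes. The same 3 members were those whose 3 tumor values all lay on one side of all wild-type values, 2 higher and 1 lower. Over all genes the groups did not overlap for 36.4%, 14.0% higher and 22.4% lower in tumors, so the members' share was near the background. The median difference of the members was 0.00, against -0.12 over all genes.

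Levels are log2 values after RMA, the authors' array summary, and because probe sets bind with different strength they are compared between arrays and not between genes. As a guide to background, each array was given a mark, the 95th percentile of its values for 1105 olfactory receptor genes. The mark was 3.70 to 3.86 on wild-type arrays and 3.24 to 3.45 on tumor arrays. Of the representative probe sets, only that of Jag2 lay under this mark on any array, namely on 2 of the 3 wild-type arrays. These are bulk RNA samples, in which fewer cells of a type and less RNA per cell cannot be told apart.

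**Figure D1:**
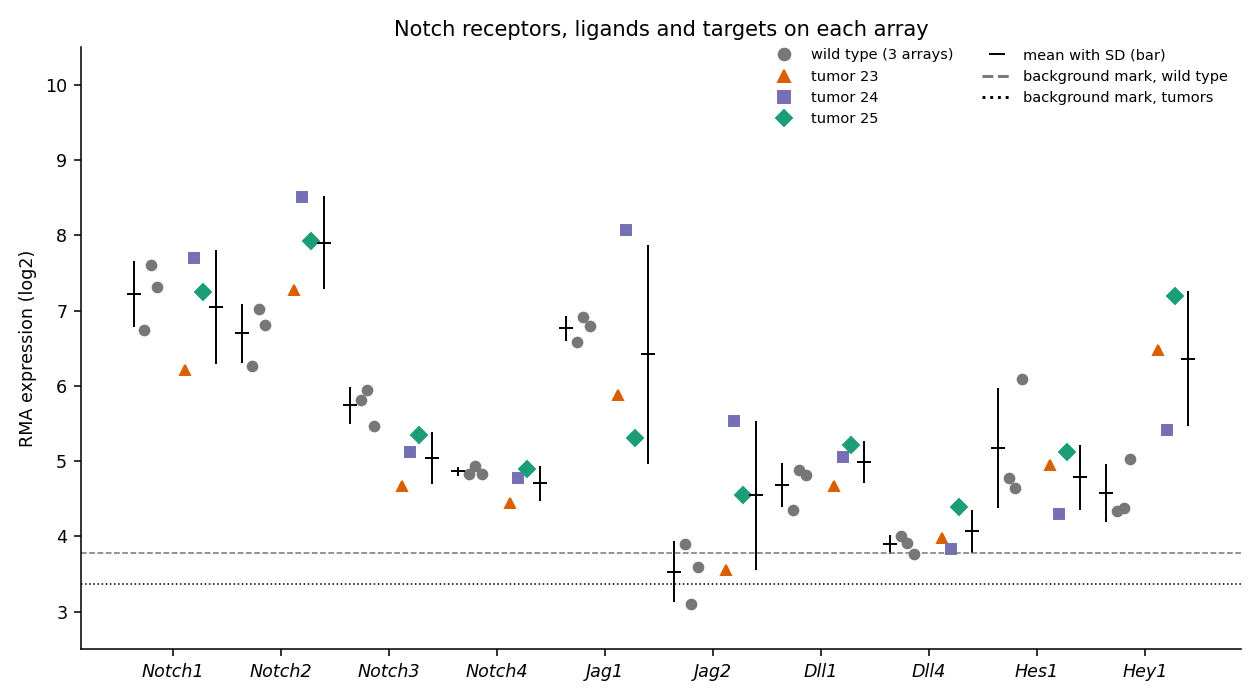
RMA expression (log2) of the 10 members on each of the 6 arrays, with the mean and SD of each group as bars beside the points and the background marks of both groups (mean over arrays) as lines. Tumor values lie above all wild-type values for Notch2 and Hey1 and below them for Notch3, and tumor 24 stands far above the other 2 tumors for Jag1 (8.07 against 5.88 and 5.30).

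Markers of several cell types differed between the libraries. The luminal keratins Krt8 and Krt18 were bright on the wild-type arrays (10.3 to 11.1 and 10.6 to 11.6), but these arrays also carried the fibroblast gene Dcn at 10.1 to 11.1 and the adipocyte and endothelial gene Fabp4 at 8.61 to 10.8. The fibroblast list was divided. Of its 8 genes, 6 had higher means in tumors, among them Col1a1, Col1a2 and Col3a1 (wild-type means of 5.80, 4.99 and 5.20). Dcn (-2.76) and Dpt (-2.30) had lower means in tumors. The adipocyte genes Adipoq, Cidec and Lep lay under the mark on all arrays. The mean of 8 luminal epithelial markers was 8.87 to 9.66 in wild-type cells and 6.94 to 8.38 in tumors, that of 4 hormone-sensing luminal markers 6.29 to 6.97 and 3.83 to 4.46, and that of 8 macrophage markers 3.85 to 4.32 and 6.16 to 6.80. The mean of 8 pericyte and smooth muscle markers was 4.49 to 4.69 in wild-type cells and 5.13 to 5.97 in tumors, and that of 5 adipocyte markers 4.20 to 4.82 and 3.50 to 3.93. Within the pericyte list, Des measured 9.96 in tumor 23, against 3.97 and 4.92 in tumors 24 and 25. The adipocyte difference came mostly from Fabp4 (-2.87), as the other genes of that list differed by -0.54 to -0.0094. Skeletal muscle markers averaged 9.52 in tumor 23 and 6.45 in tumor 25, but 3.69 in tumor 24 and at most 3.56 on wild-type arrays. The groups overlapped for the means of the luminal progenitor (6.44 to 7.10 in wild-type cells and 5.81 to 6.59 in tumors), basal (5.62 to 6.01 and 5.67 to 6.43), endothelial (4.21 to 4.78 and 4.01 to 4.88) and fibroblast lists (5.48 to 6.15 and 5.08 to 6.54). In the luminal progenitor list, however, Kit (2.42 higher) and Elf5 (1.90 higher) rose and Aldh1a3 (-2.72) and Ltf (-3.54) fell in limma's test. Of the 6 basal genes only Myh11 passed, with a fall of 1.40 (adjusted p of 0.030 in limma). Oxtr was higher in all tumors (1.00) without passing, and lay under the mark on all wild-type arrays. The groups also overlapped for the T and B cell (3.32 to 3.74 and 3.09 to 3.43) and keratinocyte lists (3.35 to 3.69 and 3.06 to 3.76). The part of these differences in the results for the Notch genes was not tested.

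**Figure D2:**
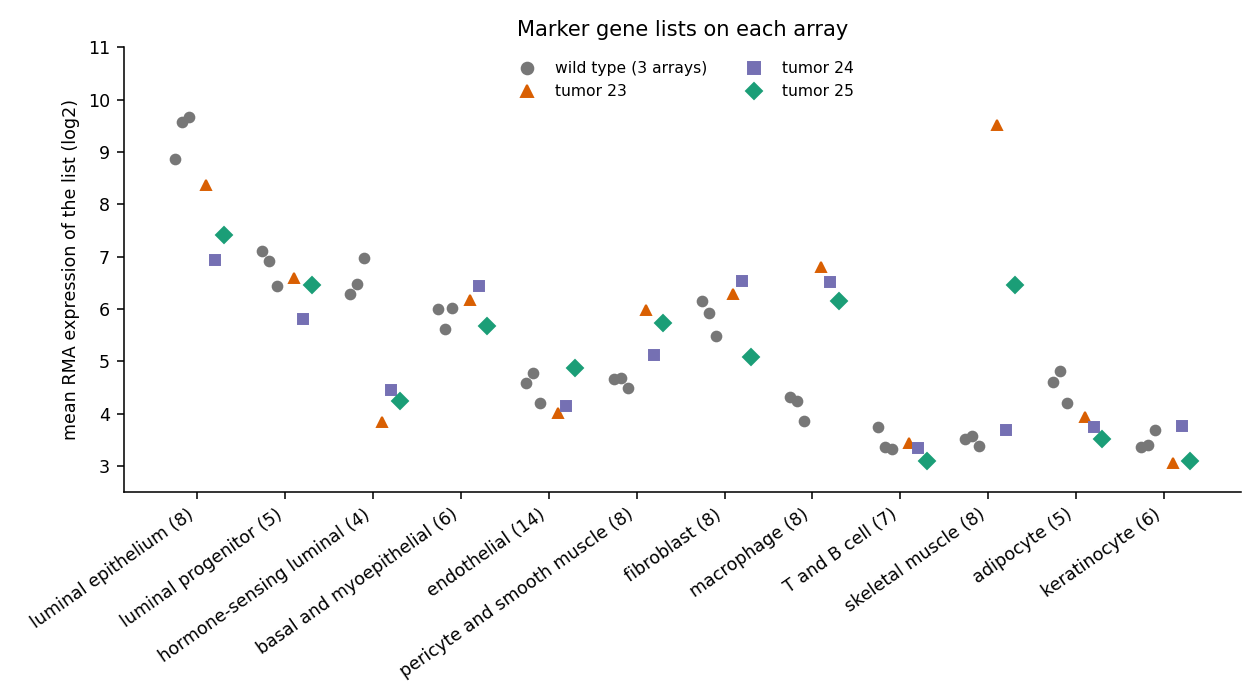
Mean RMA expression (log2) of 12 marker gene lists on each array, with the number of measured genes in parentheses. The luminal epithelial and hormone-sensing lists are lower and the macrophage list higher in all 3 tumors, the luminal progenitor list overlaps, and the skeletal muscle list is high in tumors 23 and 25 only.

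Among the receptors, Notch2, a receptor expressed in many tissues, measured 6.26, 7.02 and 6.81 in wild-type replicates 1, 2 and 4, and 7.28, 8.51 and 7.92 in tumors 23, 24 and 25. Every tumor thus lay above every wild-type array, by 0.26 at the closest. The difference was 1.21 ± 0.36 (SE, n = 3 and 3), with a 95% interval of 0.34 to 2.07 before correction and an adjusted p of 0.11 in limma. Its direction held under all 15 alternatives, none of which brought it past the threshold. The filters on dim genes, treatments of probe sets and trended prior left its difference at 1.21, so they could not turn its direction. Because the groups did not overlap, left-out arrays and array weights could not turn it either, and only the scalings could.

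Notch3, a receptor prominent in pericytes and vascular smooth muscle, measured 5.82, 5.95 and 5.46 in wild-type cells and 4.67, 5.12 and 5.34 in tumors 23, 24 and 25. All tumors were lower than all wild-type arrays, although tumor 25 was only 0.12 below the lowest of them. The difference was -0.70 ± 0.24 (SE), with a 95% interval of -1.28 to -0.12 and an adjusted p of 0.14 in limma. Other pericyte and smooth muscle markers went both ways. Of the 8, 6 had higher means in tumors, among them Mcam (1.53 higher) and Anpep (0.92 higher), which did not pass, and Pdgfrb, which rose by 2.56 with an adjusted p of 0.035 in limma. Rgs5 (-0.52) and Cspg4 (-0.01) had lower means, and neither passed. When each array was centred on housekeeping genes, Notch3 stood at -1.32 and passed (adjusted p of 0.029 in limma). That scaling shifts all genes of an array by the same amount, and it moved the median over all genes from -0.12 to -0.74. Relative to these medians Notch3 stood at -0.58 under both, which holds by construction for every gene.

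Notch1, a receptor with roles in many cell fate decisions, gave 6.74, 7.60 and 7.32 in wild-type cells and 6.22, 7.70 and 7.25 in tumors. The 2 groups overlapped, with tumor 23 lowest and tumor 24 highest of all 6 arrays. The difference was -0.17 ± 0.42 (SE), with an interval of -1.17 to 0.84. Notch4, a receptor best known from blood vessels and as the site of mammary tumor virus insertions, had the tightest wild-type values of the receptors: 4.83, 4.94 and 4.83, against 4.44, 4.77 and 4.90 in tumors. Its difference of -0.16 ± 0.18 (SE) had an interval of -0.60 to 0.28. The groups overlapped for all but 1 of 14 endothelial markers, among them Pecam1 and Cdh5, at 5.70 to 7.10 and 5.54 to 7.34 in wild-type cells and 5.58 to 6.69 and 5.42 to 7.42 in tumors. The exception was Vwf, von Willebrand factor, which fell by 1.01 (5.46 to 5.55 in wild-type cells and 4.40 to 4.60 in tumors; adjusted p of 0.028 in limma).

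Of the ligands, Jag1, a Jagged-class ligand, had the largest spread between tumors of the 10 members. Wild-type cells measured 6.58, 6.92 and 6.80, a span of 0.33, whereas tumors 23, 24 and 25 measured 5.88, 8.07 and 5.30, a span of 2.77. Tumor 24 was therefore above every wild-type array and the other two below. The SD between tumors was 1.46, larger than that of 98.7% of all genes, while the difference between group means was -0.35 ± 0.68 (SE), with an interval of -1.97 to 1.28 and an adjusted p of 0.74 in limma. Without tumor 24 the difference was -1.17, and without tumor 25 it was 0.21. The basal marker mean had the same order of tumors (6.17, 6.43 and 5.67 in tumors 23, 24 and 25), but its genes were divided. Krt14 (10.1, 11.6 and 7.63) and Acta2 (7.32, 7.79 and 6.35) followed that order, whereas Cnn1 (6.92, 4.14 and 6.46) and Oxtr (4.42, 3.77 and 4.96) were lowest in tumor 24, Trp63 (3.72, 6.93 and 4.50) was lowest in tumor 23 and Myh11 (4.54, 4.31 and 4.10) was highest there. The fibroblast mean had this order too (6.29, 6.54 and 5.08), and its genes were also divided. Col1a1, Col1a2 and Col3a1 followed the order, whereas Dcn, Lum, Pdgfra, Dpt and Col5a1 did not. The part of basal cells or fibroblasts in the Jag1 values was not tested.

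Jag2, the other Jagged ligand, measured 3.90, 3.10 and 3.60 in wild-type cells, where replicates 2 and 4 lay under the background mark. Tumor 23 measured 3.56, within the wild-type range, while tumors 24 and 25 were at 5.54 and 4.55, above all wild-type arrays. The difference was 1.01 ± 0.50 (SE), with an interval of -0.19 to 2.22 and an adjusted p of 0.24 in limma; without tumor 24 it was 0.52. The SD of 0.99 between tumors exceeded that of 94.5% of all genes.

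The Delta-like ligands had the smallest differences among the ligands. Dll1 measured 4.35, 4.89 and 4.81 in wild-type cells and 4.68, 5.06 and 5.22 in tumors, a difference of 0.30 ± 0.23 (SE) with an interval of -0.26 to 0.87. Its second probe set lay under the mark on all arrays (3.26 to 3.43 in wild-type cells and 2.88 to 3.10 in tumors) and differed the other way, by -0.32, so the direction for Dll1 is not settled. Dll4, the vascular Delta-like ligand, stood just above the mark on wild-type arrays, at 4.01, 3.92 and 3.76 against marks of 3.76, 3.86 and 3.70. In tumors 23, 24 and 25 it measured 3.97, 3.83 and 4.39 against lower marks of 3.24, 3.45 and 3.41. Its difference was 0.17 ± 0.21 (SE), with an interval of -0.32 to 0.66. A probe set that names Dll4 together with Gm14207 was left out and went the other way, with means of 3.61 in wild-type cells and 3.03 in tumors. For Dll1 and Dll4 the sign turned to negative after centring on housekeeping genes.

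Among the targets, Hey1, a repressor of the hairy and enhancer-of-split related family, measured 4.33, 4.37 and 5.02 in wild-type cells and 6.47, 5.42 and 7.20 in tumors 23, 24 and 25. Every tumor was above every wild-type array, tumor 24 by 0.40 as the closest. The difference was 1.79 ± 0.46 (SE, n = 3 and 3), 3.45-fold, with a 95% interval of 0.68 to 2.90 and an adjusted p of 0.085 in limma. It passed when tumor 24 was left out (2.26, adjusted p of 0.028 in limma). After centring on housekeeping genes it passed at 1.17 (adjusted p of 0.041 in limma). With dim genes removed it passed at adjusted p of 0.035 (means under 5) and 0.044 (means under the median) in limma. Calls over all genes also made up a larger share in these settings than the 867 of 22180 in the main test. They were 1200 without tumor 24, 7523 with the centring, and 915 of 7726 and 1119 of 11090 with the filters. Over Hey1's 15 alternatives the adjusted p in limma ran from 0.028 to 0.19, and the tumors were higher in all of them. The filters, treatments of probe sets and trended prior left its difference at 1.79, so they could not turn its direction. As the groups did not overlap, neither could left-out arrays or array weights, and only the scalings could.

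Hes1, the repressor that most tissues use as a Notch target, did not share this pattern. It measured 4.78, 4.64 and 6.09 in wild-type cells and 4.94, 4.30 and 5.12 in tumors, so that the groups overlapped and wild-type replicate 4 was the highest array. The difference was -0.38 ± 0.44 (SE), with an interval of -1.43 to 0.66 and an adjusted p of 0.57 in limma, and without wild-type replicate 4 it was 0.07. Tumor 24 had the lowest value of the 3 tumors for both Hes1 and Hey1, and tumor 25 the highest.

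**Figure D3:**
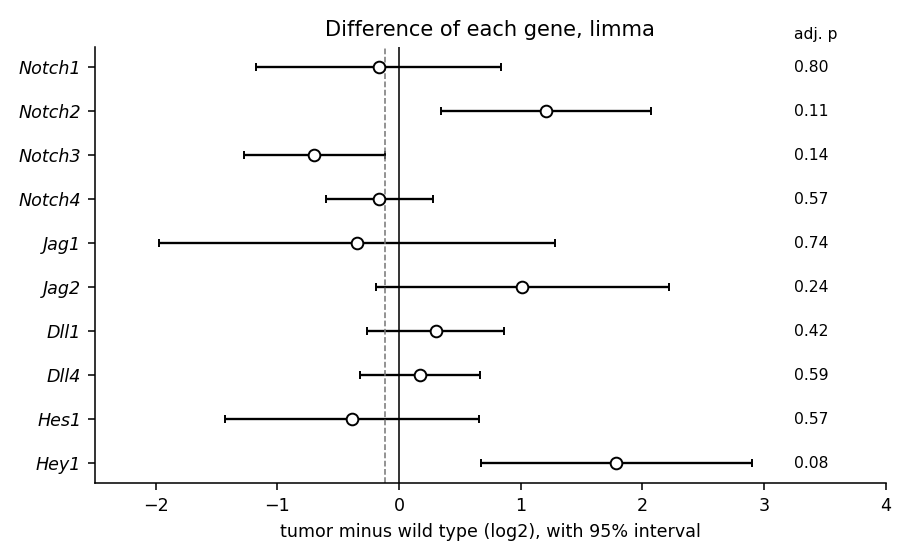
Difference between tumors and wild-type cells (log2) for each member, with limma's 95% interval before correction as bars and the adjusted p at the right. The dashed line is the median of all genes (-0.12), and the intervals of Notch2, Notch3 and Hey1 leave out 0 although no adjusted p is below 0.05.

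The 3 tumors ranked differently across the members. Tumor 24 had the highest value of the tumors for Notch1, Notch2, Jag1 and Jag2, and tumor 25 for Notch3, Notch4, Dll1, Dll4, Hes1 and Hey1. Tumor 23 had the highest value for none and the lowest for 6: all 4 receptors, Jag2 and Dll1. Against the wild-type mean, tumor 24 stood at 1.81 for Notch2, 1.31 for Jag1 and 2.00 for Jag2, but at 0.84 for Hey1 and -0.87 for Hes1. Tumor 25 stood at 2.62 for Hey1 and at -1.46 for Jag1. Each tumor is 1 array, so these orders carry no test.

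The 64 other pathway genes that could be measured, of 67 listed, gave 1 call upward and 1 downward, a share near that of all genes, and a median difference of -0.01. The gene that rose was Poglut1, which adds glucose to the EGF repeats of Notch receptors: it measured 5.67, 5.29 and 5.47 in wild-type cells and 6.64, 6.84 and 7.59 in tumors, without overlap. Its difference was 1.55 ± 0.28 (SE; adjusted p of 0.041 in limma). The gene that fell was Dtx1, a Deltex ubiquitin ligase that binds the receptor's intracellular part: it measured 4.54, 4.80 and 4.55 in wild-type cells and 3.66, 3.81 and 3.69 in tumors. Its difference was -0.91 ± 0.17 (SE; adjusted p of 0.041 in limma), and a dimmer probe set of Dtx1 stood at -0.62 without passing. Poglut1 lost its call without wild-type replicate 1, 2 or 4, without tumor 23 or 25 (adjusted p of 0.060 to 0.12 in limma) and after housekeeping centring (0.053). Dtx1 lost it without any 1 of the 6 arrays (0.052 to 0.11), where genes with means under the median were dropped (0.075), with the mean of all its probe sets (0.058) and with the trended robust prior (0.061), and was called in 5 of its 14 alternatives.

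**Figure D4:**
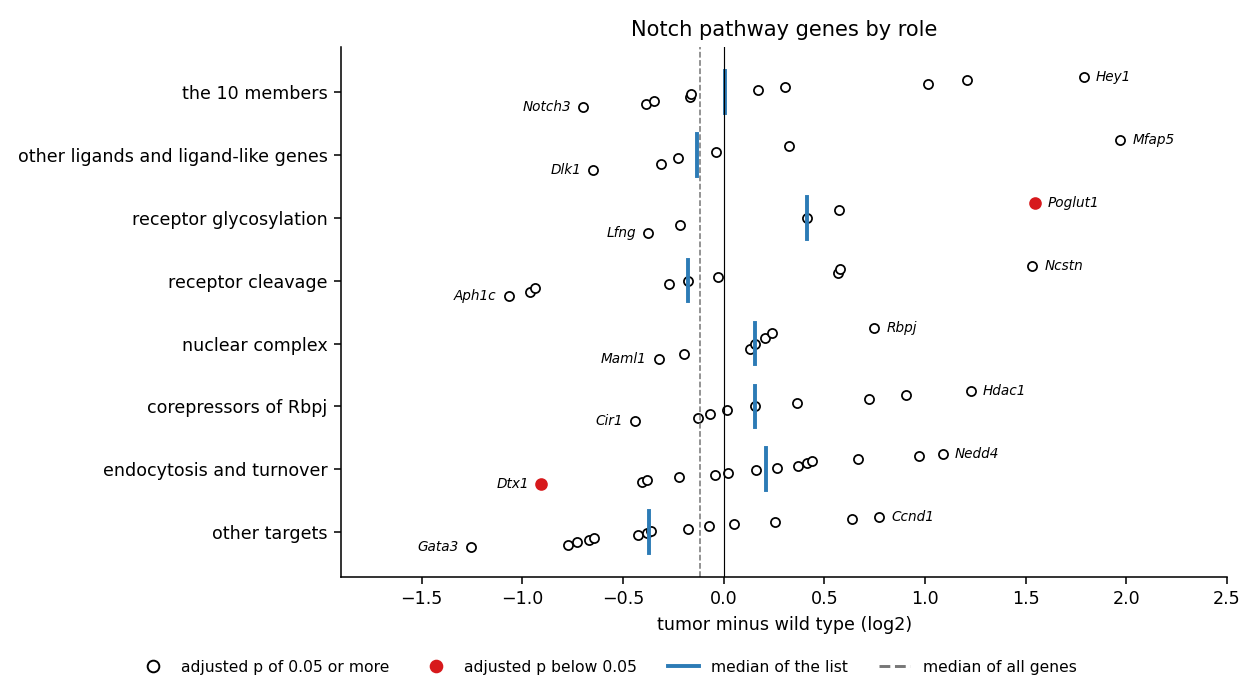
Difference between tumors and wild-type cells (log2) for every measured pathway gene, grouped by role, with the median of each list as a bar and the median of all genes as a dashed line. Only Poglut1 and Dtx1 are filled, as genes with an adjusted p below 0.05, and the list of other targets has the lowest median (-0.37).

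No other gene in these lists passed. Of 6 other ligands and ligand-like genes, with a median of -0.13, the largest differences were those of Mfap5, a microfibril protein (1.97 ± 1.08, SE), and Dlk1, a Delta-like protein without the receptor-activating domain (-0.65 ± 0.23). Mfap5 measured 6.93 and 8.20 in tumors 23 and 24, but 3.62 in tumor 25, below the wild-type range of 4.16 to 4.46. In the 5 genes of receptor glycosylation, with a median of 0.41, the fringe enzyme Rfng (0.57 ± 0.29) and the fucosyltransferase Pofut1 (0.41 ± 0.30) followed Poglut1. For 9 of 10 measured genes of receptor cleavage the median was -0.18. Within that list the gamma-secretase subunits Ncstn (1.53 ± 0.56) and Aph1c (-1.07 ± 0.32) differed most, in opposite directions.

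The 7 genes of the nuclear complex had a median of 0.15, with Rbpj itself at 0.75 ± 0.53 (SE) and the coactivator Maml1 at -0.32 ± 0.16. Rbpj measured 8.56 in tumor 25, while tumors 23 and 24 (6.72 and 6.82) lay within the wild-type range of 6.18 to 7.09. Among 9 of 11 measured corepressors, with a median of 0.16, the histone deacetylase Hdac1 (1.23 ± 0.59) and the Groucho relative Tle2 (0.90 ± 0.23) were furthest from 0. The median of 14 genes of endocytosis and turnover was 0.21, and the ubiquitin ligases Nedd4 (1.09 ± 0.27) and Itch (0.97 ± 0.45) had the largest differences that did not pass.

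The other Notch targets had the lowest list median, -0.37 over 14 genes, and none passed. For 8 of them all tumors lay below all wild-type arrays, that is 57.1% against 22.4% of all genes and 32.1% of the olfactory receptor genes. Of these 8, Hes3 and Helt lay under the mark on all 6 arrays, and Hes2 and Hes5 on 2 wild-type and all 3 tumor arrays, while the mark itself was 0.41 lower in tumors. Of the others, Hes7, a segmentation repressor (-0.78 ± 0.20, SE), lay under the mark in 1 tumor, and Nrarp, a feedback inhibitor of Notch (-0.67 ± 0.22), Ptcra (-0.38 ± 0.17) and Gata3 (-1.25 ± 0.32) were above it on every array. Nrarp measured 4.50, 4.88 and 4.66 in wild-type cells and 4.03, 3.71 and 4.30 in tumors. Gata3, a luminal transcription factor as well as a Notch target in some lineages, also belongs to the hormone-sensing luminal markers, of which all 4 measured were lower in tumors. The cyclin gene Ccnd1, a target in several tissues, was at 0.77 ± 0.34 and Hes6 at 0.64 ± 0.34 in the other direction. Genes of this list beyond Gata3 and Hes7 were named after their values were seen.

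Rbpj recognises the core TGGGAA, read as TTCCCA on the other strand. Both forms were searched in RefSeq promoter windows of 300 bases (250 before to 50 after a gene's start, GRCm38.p6), where 25.6% of all 32851 windows held at least 1 match. Windows were found for 8 of the 10 members, all but Hes1 and Hey1, and none of their 9 windows held a match. Of the 9 windows of the other targets, from 8 genes, 5 held one. Hes5, Hey2 and Ptcra of that list held 2 matches in a window, as did Lfng, Rbpj and Aak1 of the other lists. Over all windows, 3.79% (1245 of 32851) held 2 or more. The stretches below are shown as examples, from Hes5 and Lfng, which are textbook Notch targets, and from Poglut1, the pathway gene that rose; capitals mark the core, and a match describes letters only, not binding.
Hes5, chr4:154960685-154960714, plus strand: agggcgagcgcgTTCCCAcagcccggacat
Hes5, chr4:154960829-154960858, plus strand: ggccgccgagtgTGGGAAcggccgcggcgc
Lfng, chr5:140607194-140607223, plus strand: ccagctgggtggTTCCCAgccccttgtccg
Lfng, chr5:140607221-140607250, plus strand: ccgtatcccacgTGGGAAggagagatctcc
Poglut1, chr16:38550302-38550331, minus strand: ctgctgccttatTTCCCAtgccaggctccc

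In these genes the matches began 226 and 82 bases before the start of Hes5, 135 and 108 before that of Lfng, and 63 before that of Poglut1. The 3 genes did not share a direction. Hes5 measured 3.61, 4.10 and 3.10 in wild-type cells and 2.93, 2.97 and 2.72 in tumors, mostly under the mark. Lfng, the fringe enzyme that alters which ligands a receptor answers to, overlapped between the groups, at 5.69, 6.53 and 5.44 against 4.94, 5.77 and 5.82 (difference -0.37 ± 0.37, SE). Poglut1 was higher in all tumors, with the values given with its test.

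Genes with the most similar profile were taken as those with the smallest root mean square difference from a member after each was centred on its mean over the 6 arrays. For Jag1 the nearest were the stress keratin Krt16 (0.20 log2 units, where Jag1's own spread was 0.87), 4930405O22Rik (0.23) and Mir761 (0.23). Krt16 measured 4.13, 6.72 and 3.85 in tumors 23, 24 and 25 and 5.21 to 5.77 in wild-type cells. The closest to Hey1 were the RNA helicase Ddx18 (0.14, where Hey1's spread was 1.06), the protocadherin Pcdh18 (0.14) and the transferrin receptor Tfrc (0.16). Notch2 was followed most closely by the RNA-binding protein Tardbp (0.13), Inpp4a (0.16) and Glb1l (0.17). Next to Jag2 stood Tmem64 (0.15), Ms4a4c (0.18) and the E2F partner Tfdp1 (0.19). With 6 arrays and 22180 genes such neighbours describe these arrays only.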

How the data were processed

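Per the labels' protocols, a NuGEN system amplified the total RNA, and the label was biotin. The authors deposited log2 values made with RMA and oligo, per the submitters' processing notes; for both, the version is not given in the sources used here. This method brings arrays towards a common distribution and compresses differences near background. Precision is limited by the number of arrays (3 and 3). No scan dates were used, so no batch could be tested.

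Of 41345 probe sets, 23521 named 1 gene in the platform annotation, 1814 several and 16010 none; 23328 of the first were matched to RefSeq for a current symbol. The probe set with the highest mean stood for each of 22180 genes. A probe set naming Dll4 with another gene was left out, and its means are given with Dll4. Tumors were compared with wild-type cells by limma 3.58.1 (R 4.3.3; lmFit, eBayes, two-sided) across all genes, with Benjamini-Hochberg adjustment at 0.05. The step was tested on simulated data. Named genes are all members, each pathway gene that passed, the 2 largest differences that did not in each list, the 2 brightest markers of each list (not all are printed), and the 3 nearest profiles (given for 4 members). Other markers, and other targets beyond Gata3 and Hes7, were named after their values were seen. Members and lists were chosen with earlier results of these data known. Alternatives were 3 scalings, 2 filters on dim genes, 2 treatments of probe sets, a trended robust prior, array weights and leaving out each array.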

Additional observations from a re-analysis of the deposited data

How the results depend on the processing

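The count of members that passed limma's test was 0 in the analysis reported. It was 2 after centring on housekeeping genes (Notch3 and Hey1), 1 under each filter on dim genes (Hey1), where 5 and 10 members were kept, and 0 to 1 when single arrays were left out, the 1 being Hey1 without tumor 24. Over all 22180 genes the count of 867 became 7523 with housekeeping centring and 1324 with array weights. It was 72 to 1200 when single arrays were left out, 72 being without wild-type replicate 4 and 1200 without tumor 24. Under the filters it was 915 of 7726 genes (means of at least 5) and 1119 of 11090 (at least the median). Each setting in which a member passed thus also had a larger share of all genes called. Housekeeping centring lowered the whole distribution, with 548 genes called higher and 6975 lower against 559 and 308. Quantile normalization again gave 394 and 477 and cyclic loess 457 and 399, and both left the members' count at 0. Signs turned for Dll1 with housekeeping centring (-0.32) and with the mean of its probe sets (-0.0098), and for Dll4 with housekeeping centring (-0.45). Leaving out single arrays gave -0.49 to 0.25 for Notch1, -1.17 to 0.21 for Jag1 and -0.65 to 0.074 for Hes1. Notch2, Notch3, Notch4, Jag2 and Hey1 kept their direction in every alternative run. For Notch4 and Jag2 only the scalings, array weights and left-out arrays could turn it, because the other alternatives left their differences unchanged. For Notch2, Notch3 and Hey1 the groups did not overlap, so left-out arrays and array weights could not turn it either, only the scalings. Replicate numbers are not shared between the groups. No paired analysis was possible because of this. Differences near the background mark, as for Jag2, Dll4 and the dimmer targets, are limited by signal over background.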
